A study of Mus musculus with 20 samples.

Results

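The genes described here encode the protein-folding and stress-response machinery of the liver cell. They are 42 genes given as a list of symbols, which were matched by a GRCm38 annotation to the 55573 gene identifiers of the count tables. Of the 42 members, 28 act in the endoplasmic reticulum (ER), 11 are cytosolic heat shock proteins, co-chaperones or a copy of one, 2 form the mitochondrial chaperonin and 1, Hsf1, is the transcription factor of the heat shock response. All 42 had enough reads to be among the 13783 genes tested, although the copy, Hsp25-ps1, reached that only through the Titan mice. At 11 weeks of age, 7 members were lower and 1 was higher in Titan than in control livers, where 7.69% of all genes tested were lower and 7.23% higher. At 19-21 weeks 1 was lower and 1 was higher, against 4.88% and 4.24% of all genes.

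Proteins that enter the secretory pathway fold in the ER with the help of chaperones and disulfide isomerases, and those that fail to fold are sent back to the cytosol for degradation. When unfolded proteins accumulate, the sensors Ern1 (IRE1), Eif2ak3 (PERK) and Atf6 start the unfolded protein response, which raises ER chaperone genes and, through Xbp1 and Ddit3 (CHOP), decides between recovery and cell death. The heat shock response is its cytosolic counterpart, driven by Hsf1. Hepatocytes secrete large amounts of plasma protein and carry an extensive ER, and both responses have been linked to obesity and liver fat.

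RNA was sequenced from whole liver of Titan mice, an outbred line selected over many generations for high body mass (also called DU6), and of mice of the unselected outbred line from the same breeding base (FZTDU). There were 4 groups of 5 mice each: controls and Titan mice at 11 weeks, and controls and Titan mice at 19-21 weeks. All were fed the standard breeding diet ad libitum with no treatment, and the study describes them as male. Each line is a single stock, so effects of selection and of drift cannot be told apart. The p-values below measure the spread between these mice, and in whole liver fewer cells of a type and less RNA per cell cannot be told apart.

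Libraries held 6794935 to 23295028 gene-assigned reads, and 18.39% to 41.96% of all but the unmapped reads lay outside genes. Median gene-assigned reads were 14283662 in 11-week controls, 13971374 in 11-week Titan mice, 11218712 in older controls and 9524930 in older Titan mice. Median shares outside genes were 24.1%, 23.46%, 23.83% and 28.75% in the same order. Every older Titan library (at most 11464698 reads) was smaller than every 11-week control library (at least 12209454). Levels are given as CPM, gene counts scaled to the size of the library. The summed level of 7 hepatocyte markers ranged from 69603 to 105128 CPM over the 20 mice, most of it from Alb (48322 to 83312 CPM). At 11 weeks, 3 of the 7 were lower in Titan mice, with log2 fold changes of -0.54 for Apoa1, -0.72 for Cps1 and -0.63 for Cyp3a11 (edgeR adjusted p = 0.012, 0.0293 and 0.0132). Of 6 sinusoidal endothelial markers, Kdr (-0.26, 0.0253) and Pecam1 (-0.28, 0.0441) were lower at that age, and the set summed to 449 to 485 CPM in controls and 377 to 457 CPM in Titan mice. Of 10 markers of pancreatic acinar cells, a secretory type rich in ER chaperones, 8 had at most 3 reads in every mouse. Prss2, Cpa1, Cpb1, Pnlip, Amy2a5 and Cel were at 0 CPM in every mouse. The sum of this set came mostly from Cela1, so it describes that gene and is not a measure of acinar cells. The sum was 24.1 to 40.4 CPM in 11-week controls and 5.78 to 11.3 CPM in 11-week Titan mice, and 29.9 to 50.5 CPM and 11.2 to 22.2 CPM in the older groups. The 7 plasma and B cell markers, another secretory type, summed to 5.45 to 9.95 CPM in 11-week controls, 2.96 to 8.24 CPM in 11-week Titan mice, 7.76 to 63.9 CPM in older controls and 5.95 to 14.8 CPM in older Titan mice. The part of these cell types in the results was not tested.

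Per kilobase of annotated exon, the most abundant member was P4hb, the classical protein disulfide isomerase, at 414 CPM per kb in 11-week controls. It was followed by Calr (calreticulin) at 327, Hsp90b1 (GRP94) at 273, Hspa5 (BiP) at 270 and the cytosolic Hsp90ab1 at 230 CPM per kb. The lowest was Hsp25-ps1 at 0.0314 CPM per kb, from 2 reads in 1 of the 5 mice, followed by the inducible Hspa1a at 0.508, the small heat shock gene Hspb1 at 1.16 and Derl3 at 1.39 CPM per kb. Reads that match a near-identical copy equally are not counted. The levels of Hsp25-ps1, Hspa1a, Hspb1 and other members with such copies, among them Hspa8 and Hspa1b, may therefore be understated. The heat map of the 42 members shows how each mouse departed from the 11-week control mean.

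**Figure D1:**
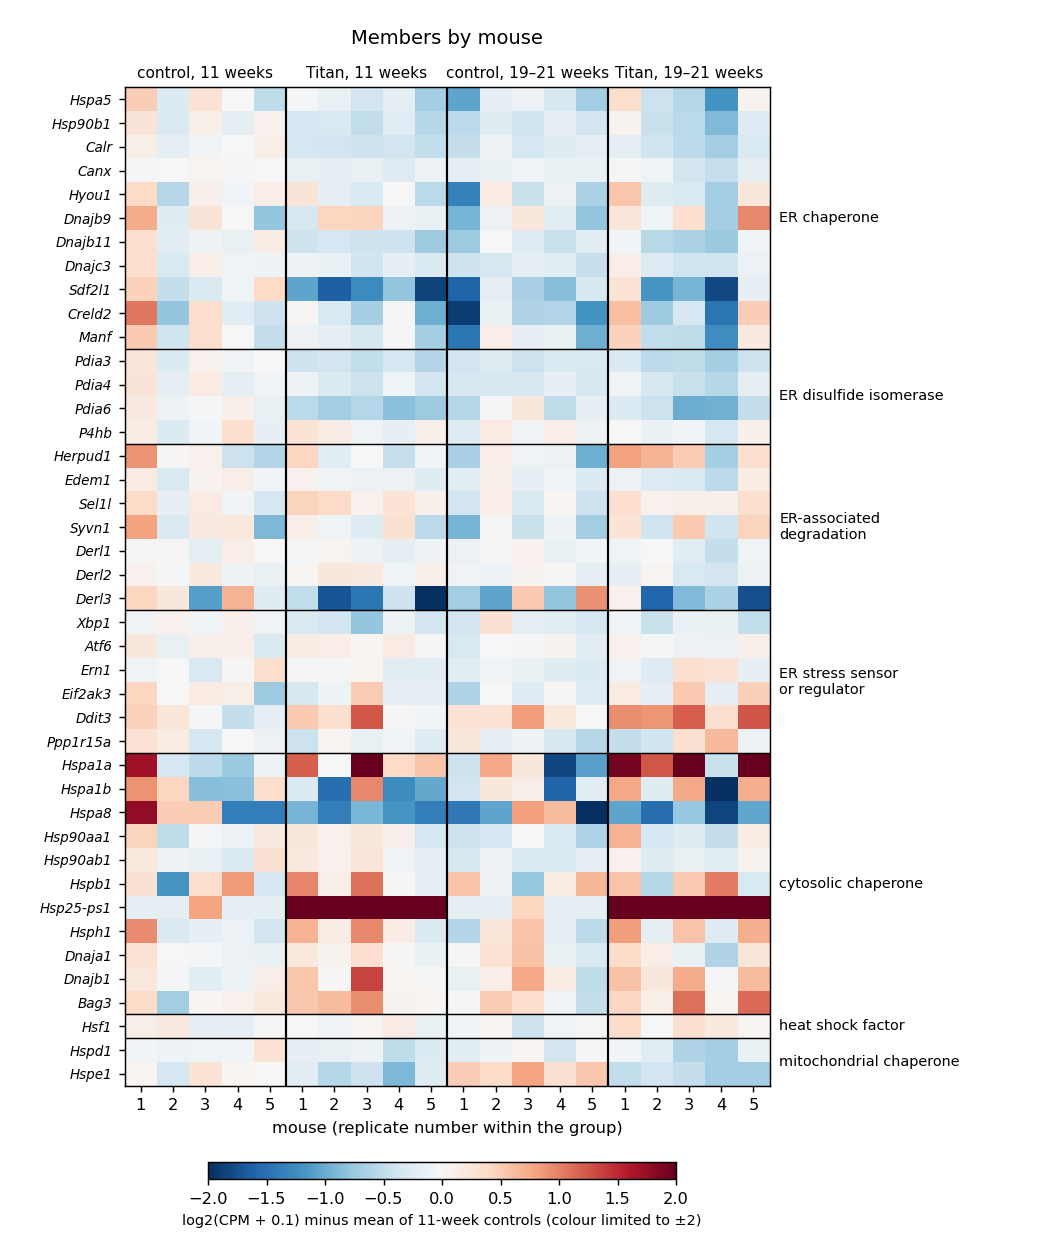
Heat map of the 42 members (rows, by role) in the 20 mice (columns, by group). Colour is log2(CPM + 0.1) minus the mean of the 11-week controls, limited to 2 in each direction. Most ER rows are blue in the 11-week Titan mice, Hsp25-ps1 is red in all 10 Titan mice, and whole columns shift together in single mice, such as replicate 4 of the older Titan mice.

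Among the 28 ER genes, 5 were lower and 0 were higher in Titan mice at 11 weeks (edgeR quasi-likelihood test, Benjamini-Hochberg adjusted p under 0.05 over all genes tested). Of all genes tested, 7.69% were called lower, 7.23% higher and 14.9% in either direction. The 5 were the lectin chaperone Calr, its partner isomerase Pdia3 (ERp57), the isomerase Pdia6, and the BiP co-chaperones Dnajb11 and Sdf2l1. In 22 of the 28 the log2 fold change was negative, against 52.6% of all genes, and the median was -0.17 on the log2 scale, against -0.02 over all genes. At an unadjusted p under 0.05, 10 of the 28 were lower, against 14.6% of all genes, and in 7 of the 28 all 5 Titan mice lay below all 5 controls, against 6.08% of all genes. Over all 42 members, 13 had an unadjusted p under 0.05 in either direction (27.5% of all genes) and 9 did not overlap between lines (11.9%). DESeq2 called 6 of the 28 ER members lower, the additional one being Derl3, against 3.68% of the genes it tested. This and the later DESeq2 shares are over 30132 genes, without the filter on low counts. They therefore include many genes of few reads and are not comparable with the edgeR shares over 13783 genes.

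Calr, which holds newly made glycoproteins in the folding cycle, lies on chromosome 8 (84841850-84846934, minus strand). Its level was 1015, 825, 901, 946 and 1018 CPM in the 11-week controls (replicates 1 to 5) and 733, 717, 703, 729 and 665 CPM in the 11-week Titan mice. Every Titan mouse lay below every control. The log2 fold change was -0.41 ± 0.09 (SE, n = 5 per group), a fall of 24.6% (edgeR adjusted p = 0.00479). Pdia3, which forms disulfide bonds in the glycoproteins held by calreticulin and calnexin, stood at 617, 434, 555, 507 and 525 CPM in controls and at 395, 402, 374, 410 and 348 CPM in Titan mice. The groups did not overlap here either, and the log2 fold change was -0.45 ± 0.09 (edgeR adjusted p = 0.00129).

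Pdia6, another thiol isomerase, which also binds the sensor IRE1, was at 459, 380, 402, 435 and 366 CPM in controls and 281, 252, 275, 229 and 247 CPM in Titan mice. All Titan values were lower, with a log2 fold change of -0.67 ± 0.15, or 1.59-fold (edgeR adjusted p = 0.00392). Sdf2l1, a small protein that keeps BiP clients from aggregating, fell the furthest of the ER members that passed the test. It was at 60.7, 31.9, 36.3, 41.7 and 58.1 CPM in controls and 21.2, 14.2, 18.3, 25.7 and 12.2 CPM in Titan mice, which again did not overlap. The log2 fold change was -1.33 ± 0.32, or 2.51-fold lower (edgeR adjusted p = 0.00726).

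Dnajb11, a J-domain protein that delivers clients to BiP, was at 122, 82.6, 90.6, 87.4 and 107 CPM in controls and 72.3, 75.8, 72.7, 72.3 and 58.5 CPM in Titan mice. The groups did not overlap, and the log2 fold change was -0.48 ± 0.15 (edgeR adjusted p = 0.0318). This call was lost when any of 5 single mice was left out, with adjusted p values of 0.0936 without control replicate 1, 0.0708 without control replicate 5, 0.0538 without Titan replicate 1, 0.0588 without Titan replicate 3 and 0.0902 without Titan replicate 5. Calr, Pdia3, Pdia6 and Sdf2l1 passed without any one of the 20 mice.

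**Figure D2:**
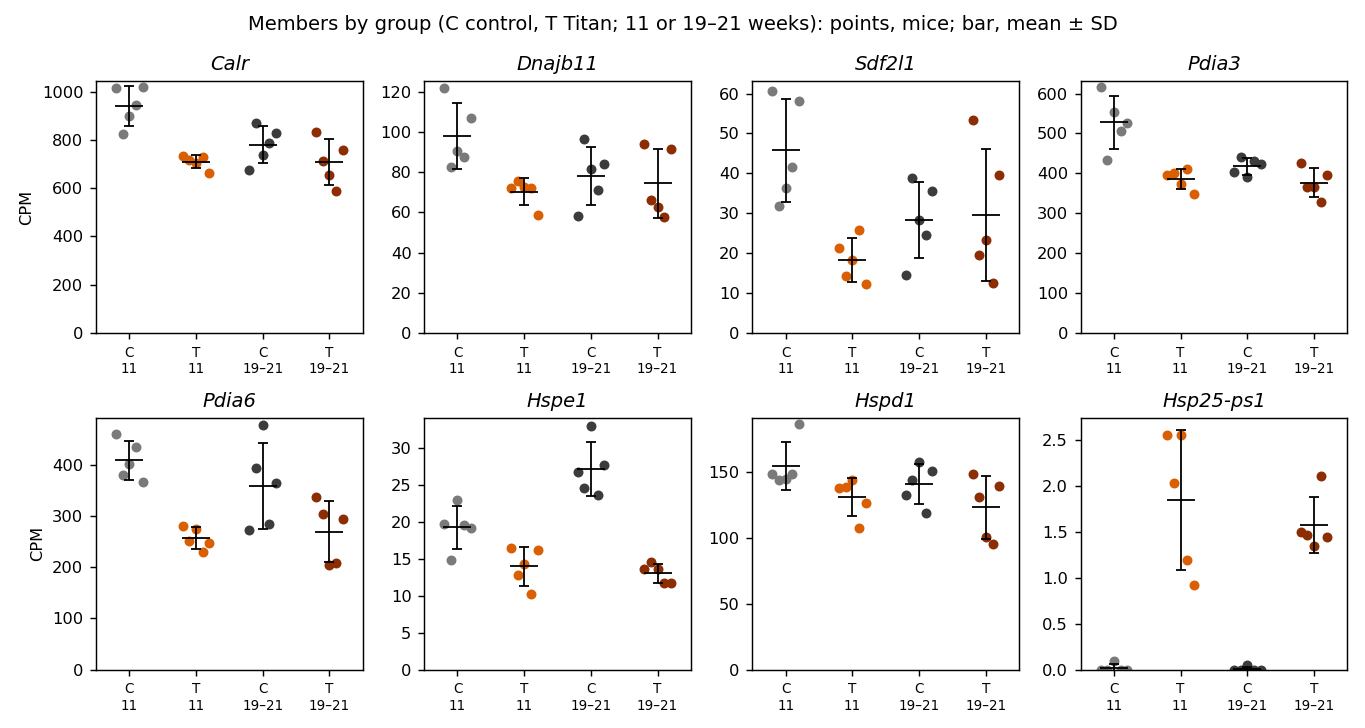
Level in CPM (vertical axes, from 0) of the 8 members Calr, Dnajb11, Sdf2l1, Pdia3, Pdia6, Hspe1, Hspd1 and Hsp25-ps1 in the 4 groups. Points are mice, and bars are the mean with its SD (n = 5). At 11 weeks the Titan points of the first 5 genes lie below all control points, at 19-21 weeks they overlap, and Hsp25-ps1 is near 0 in all 10 controls.

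Many ER chaperone genes carry the ER stress response element in their promoters, to which ATF6 and XBP1 bind together with NF-Y. RefSeq promoters (GRCm38.p6, 250 bases before to 50 after the start) were available for 33 of the 42 members. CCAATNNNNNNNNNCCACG on either strand occurred in 9 of these 33 (27.3%), against 37 of 27025 genes (0.137%). The members were listed as genes of this response, so this share describes the list and is not a result of these data. The 9 were Hspa5, Hsp90b1, Calr, Canx, Dnajc3, Creld2, Pdia6, Syvn1 and Derl3. Calr and Pdia6 were the members of these 9 that passed the test at 11 weeks. The sequences below are shown because they place the element, in capitals, in 2 genes that were lower in 11-week Titan mice and in BiP, whose groups overlapped, beside Sdf2l1, which was lower and has no match. Calr is at chr8:84846935-84847181 (minus strand), Pdia6 at chr12:17266339-17266544 (plus strand) and Sdf2l1 at chr16:17132384-17132633 (minus strand), all trimmed to bases free of annotated exons. For Hspa5, 30 bases around the element are given, at chr2:34772020-34772049 (plus strand), inside an exon of the GENCODE annotation.
Calr: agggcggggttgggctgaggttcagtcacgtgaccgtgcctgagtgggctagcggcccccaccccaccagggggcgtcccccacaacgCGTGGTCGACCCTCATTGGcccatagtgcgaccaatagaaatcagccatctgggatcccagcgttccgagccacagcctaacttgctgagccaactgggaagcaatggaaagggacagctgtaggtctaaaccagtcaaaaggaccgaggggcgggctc
Pdia6: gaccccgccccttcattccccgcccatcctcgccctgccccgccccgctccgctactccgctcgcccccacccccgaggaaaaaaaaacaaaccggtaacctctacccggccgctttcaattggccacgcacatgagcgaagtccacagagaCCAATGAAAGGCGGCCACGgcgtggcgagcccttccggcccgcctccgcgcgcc
Hspa5: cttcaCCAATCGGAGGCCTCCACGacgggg
Sdf2l1: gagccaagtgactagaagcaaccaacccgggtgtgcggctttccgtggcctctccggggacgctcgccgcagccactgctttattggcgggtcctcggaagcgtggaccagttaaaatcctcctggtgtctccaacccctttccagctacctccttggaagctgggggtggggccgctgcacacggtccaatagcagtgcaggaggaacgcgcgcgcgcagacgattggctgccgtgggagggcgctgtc

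The other ER chaperones did not pass the test at 11 weeks. Hspa5, the master chaperone and the sensors' negative regulator, was at 1562, 913, 1347, 1097 and 780 CPM in controls and 1082, 998, 846, 978 and 689 CPM in Titan mice. The groups overlapped widely, and the log2 fold change was -0.31 ± 0.24 (edgeR adjusted p = 0.445). For Hsp90b1, the ER member of the HSP90 family, control values ran from 893 to 1311 CPM and Titan values from 733 to 947 CPM, with a log2 fold change of -0.39 ± 0.14 (edgeR adjusted p = 0.0693). Canx (calnexin), the membrane-bound relative of calreticulin, varied least of all members. It was at 795 to 847 CPM in controls and 680 to 748 CPM in Titan mice, which did not overlap, and the difference of -0.17 ± 0.08 did not pass (edgeR adjusted p = 0.141). Hyou1, Dnajb9, Dnajc3, Creld2 and Manf had log2 fold changes between -0.49 and 0.01, each with overlapping groups.

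Of the 4 disulfide isomerases, Pdia4 was at 373 ± 52.6 CPM (SD) in 11-week controls and 312 ± 34.1 CPM in Titan mice (log2 fold change -0.26 ± 0.10, edgeR adjusted p = 0.106). P4hb, also a subunit of the collagen prolyl hydroxylase, was at 1183 ± 206 and 1224 ± 153 CPM (log2 fold change 0.05 ± 0.12, edgeR adjusted p = 0.849). Among the 7 genes of ER-associated degradation, 0 passed by edgeR, 1 had an unadjusted p under 0.05 and DESeq2 called 1. That one was Derl3, a derlin channel subunit of low abundance, at 3.46, 3, 1.14, 4.15 and 2.14 CPM in controls and 1.79, 0.703, 0.876, 1.89 and 0.504 CPM in Titan mice. Its groups overlapped, with a log2 fold change of -1.30 ± 0.47 (edgeR adjusted p = 0.0661, DESeq2 adjusted p = 0.0498). The ubiquitin ligase Syvn1 (HRD1) and its partner Sel1l, which carry most of the degradation of luminal proteins, had log2 fold changes of -0.17 ± 0.26 and 0.24 ± 0.13. Herpud1, the mannosidase-like Edem1 and the derlins Derl1 and Derl2 lay between -0.13 and 0.09 on the log2 scale.

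The 6 sensors and regulators likewise gave 0 calls at 11 weeks by edgeR and by DESeq2, and 1 had an unadjusted p under 0.05. That was Xbp1, whose spliced form drives ER expansion, at 218, 240, 217, 244 and 214 CPM in controls and 185, 174, 132, 211 and 173 CPM in Titan mice. The highest Titan mouse lay just under the lowest control, and the log2 fold change was -0.37 ± 0.13 (edgeR adjusted p = 0.0574). Gene counts do not separate spliced from unspliced Xbp1. The 3 sensors themselves differed little, with log2 fold changes of 0.08 ± 0.09 for Atf6, -0.10 ± 0.12 for Ern1 and -0.08 ± 0.20 for Eif2ak3. Ddit3, the pro-apoptotic factor CHOP, was at 3.60 ± 0.942 CPM in controls and 4.98 ± 2.07 CPM in Titan mice (0.47 ± 0.25, edgeR adjusted p = 0.231), and Ppp1r15a (GADD34), which restores translation, had a log2 fold change of -0.17 ± 0.19.

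At 19-21 weeks, 0 of the 28 ER members passed by edgeR and 0 by DESeq2, while 9.12% of all genes passed by edgeR and 5% by DESeq2. At an unadjusted p under 0.05, 4 were higher and 1 was lower, 5 in all, against 24.1% of all genes, and the median log2 fold change was 0.06, against 0.01 over all genes. The 5 genes that were lower at 11 weeks had overlapping groups at this age, with log2 fold changes of -0.14 ± 0.09 for Calr, -0.15 ± 0.09 for Pdia3, -0.07 ± 0.15 for Dnajb11 and 0.06 ± 0.32 for Sdf2l1. Pdia6 was at 273, 394, 478, 285 and 365 CPM in older controls and 338, 303, 204, 209 and 294 CPM in older Titan mice (-0.41 ± 0.15, edgeR adjusted p = 0.0886). It passed without control replicate 1 (adjusted p = 0.0464) or without Titan replicate 1 (adjusted p = 0.0448).

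The 4 that were higher at an unadjusted p under 0.05 were Herpud1, which assembles the degradation complex, Sel1l, Syvn1 and Ddit3. Herpud1 was at 126, 216, 186, 182 and 100 CPM in older controls and 344, 317, 282, 125 and 248 CPM in older Titan mice. All Titan mice but replicate 4 exceeded every control (0.70 ± 0.28, edgeR adjusted p = 0.124), and without that mouse the log2 fold change was 0.88 (adjusted p = 0.047). Sel1l had a log2 fold change of 0.36 ± 0.13 (edgeR adjusted p = 0.0879, and 0.0459 without control replicate 2), Syvn1 of 0.55 ± 0.26 (0.206) and Ddit3 of 0.59 ± 0.25 (0.15). The other 19 ER members at this age ranged from -0.92 ± 0.48 for Derl3 to 0.68 ± 0.39 for Creld2, and Hspa5 stood at 0.17 ± 0.24.

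**Figure D3:**
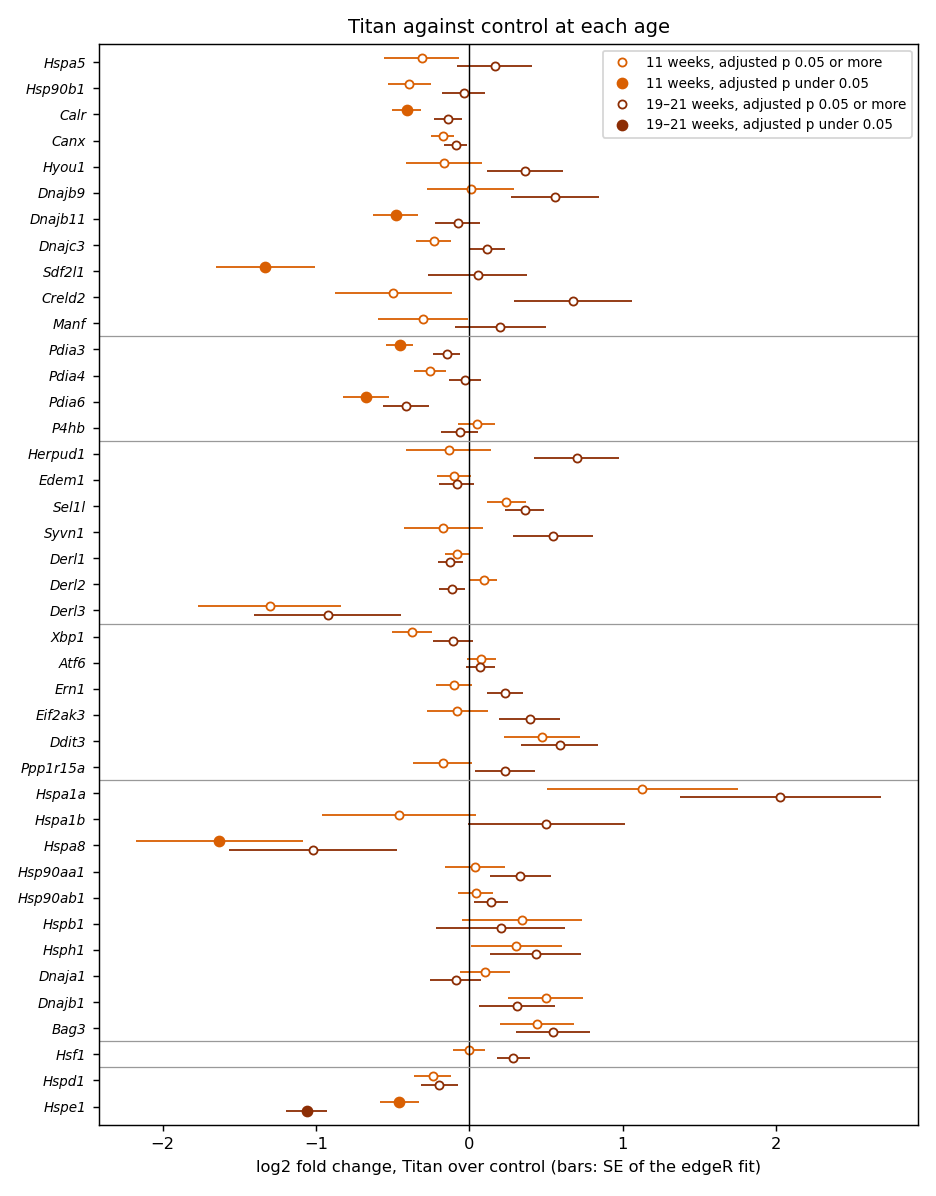
Log2 fold change of Titan against control mice with its SE (horizontal axis) for 41 members by role, at 11 weeks and at 19-21 weeks. Filled symbols had an edgeR adjusted p under 0.05, and Hsp25-ps1 is left out because its controls had almost no reads. Filled symbols are Calr, Dnajb11, Sdf2l1, Pdia3, Pdia6, Hspa8 and Hspe1 at 11 weeks and Hspe1 at 19-21 weeks.

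An interaction term asked whether the line difference itself changed with age. Of the 42 members, 0 passed by edgeR and 0 by DESeq2, and 6 had an unadjusted p under 0.05. Over all genes these shares were 0.00726%, 0.282% and 8.92%. So the loss of the 5 ER calls at the later age was not shown to be a difference between ages. Among ER members Sdf2l1 ranked first, with an age effect larger in Titan mice by 1.39 ± 0.46 on the log2 scale (edgeR adjusted p = 0.325). The difference was negative in 4 of the 28 ER members, against 46.8% of all genes.

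Age itself gave 0 calls by edgeR among the 42 members in either line, against 1.25% of all genes in Titan mice and 0.0871% in controls. In Titan mice 2 members had an unadjusted p under 0.05 (15.6% of all genes) and DESeq2 called 0 (1.36%). In controls 10 had one (6.15%), and DESeq2 called 1 (0.166%), Pdia3, which was at 403, 441, 390, 430 and 423 CPM in older controls against 434 to 617 CPM in the younger ones (-0.34 ± 0.09, edgeR adjusted p = 0.236, DESeq2 adjusted p = 0.0489). With age in controls, 27 of the 28 ER members had a negative log2 fold change, against 49.8% of all genes, with a median of -0.26. At an unadjusted p under 0.05, 8 were lower, against 3.26% of all genes. Leaving out replicate 1 of the 11-week controls turned these into 25 members, a median of -0.16 and 4 members, and leaving out replicate 1 of the older controls turned the last count into 4 as well. The 11-week controls enter both this comparison and that of the lines at 11 weeks, so the falls in both are not independent.

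Among the 11 cytosolic members, 1 was higher and 1 lower at 11 weeks, against 7.23% and 7.69% of all genes, 2 had a negative log2 fold change, against 52.6%, and the median was 0.31 on the log2 scale. At 19-21 weeks 1 was higher and 0 were lower, against 4.24% and 4.88% of all genes, the median was 0.33, and DESeq2 called 2, against 5% of the genes it tested. The calls all fell on genes with near-identical copies. The counts list 0 multimapping reads in every mouse. A read that matches several copies equally is thus in none of their counts, nor in the sums of copies below.

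Hsp25-ps1 is annotated as a processed copy of Hspb1, the small heat shock protein HSP25, on chromosome 13 (45078498-45079127, minus strand). Its reads numbered 0, 0, 2, 0 and 0 in the 11-week controls and 37, 26, 35, 12 and 22 in the 11-week Titan mice. In the older mice they numbered 0, 0, 1, 0 and 0 in controls and 11, 15, 11, 25 and 17 in Titan mice. Every Titan mouse had reads, and 8 of 10 controls had none. Set against a floor of 3 reads per control library, the level in Titan mice was at least 8.88-fold higher at 11 weeks and at least 5.87-fold higher at 19-21 weeks (edgeR adjusted p = 1.24e-06 and 7.88e-06). Both calls held without any one mouse, and 5.84% and 3.62% of all genes were higher without overlap at these ages. Because the gene entered the test only through the Titan mice, the p-values and the stability of the calls add no support beyond the read counts themselves.

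The parent Hspb1, on chromosome 5, was at 1.35, 0.416, 1.39, 2.01 and 0.828 CPM in 11-week controls and 2.21, 1.17, 2.41, 1.09 and 0.924 CPM in Titan mice. The groups overlapped (0.35 ± 0.39, edgeR adjusted p = 0.623), as they did at 19-21 weeks (0.21 ± 0.42, edgeR adjusted p = 0.809). Summing the reads of the pair gave a log2 fold change of 1.44 ± 0.35 at 11 weeks (edgeR adjusted p = 0.0072) and 1.28 ± 0.37 at 19-21 weeks (0.0354). In the reference, the copy differs from the 630 coding bases of Hspb1 at 4 positions, counted from 1 at the start codon: C6T, G559A, T561C and T609C. The longest identical stretch is 552 bases, and a read lying wholly within it matches both genes equally and is counted for neither. One place where the pair can be told apart is shown with position 609 in capitals.
Hspb1: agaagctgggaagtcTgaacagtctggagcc
Hsp25-ps1: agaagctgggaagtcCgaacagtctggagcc

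Hspa8, the constitutive HSC70 that folds new proteins and uncoats vesicles, was the cytosolic member called lower at 11 weeks. Its level was 261, 108, 109, 29.3 and 29.2 CPM in the 11-week controls and 40.0, 29.4, 40.7, 33.9 and 29.7 CPM in the Titan mice. Control replicates 1 to 3 stood apart from every other mouse of that age, while replicates 4 and 5 lay at the level of the Titan mice. The log2 fold change was -1.63 ± 0.54 (edgeR adjusted p = 0.0482), and it lost the call without control replicate 1 (-0.99, adjusted p = 0.215) and without 12 of the other 19 mice. In older controls the values split in the same manner, at 28.4, 36.8, 136, 119 and 18.6 CPM, against 37.0, 26.9, 45.2, 21.4 and 37.1 CPM in older Titan mice (-1.02 ± 0.55, edgeR adjusted p = 0.261).

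The processed pseudogene Gm15459, on chromosome 5 (5781615-5783555, minus strand), ran the other way, although its own difference of 1.21 ± 0.48 at 11 weeks did not pass (edgeR adjusted p = 0.0998). Its level was 0.844, 26.4, 40.4, 53.4 and 60.1 CPM in the 11-week controls and 81.9, 81.6, 95.3, 89.7 and 74.4 CPM in the Titan mice. Of the reads counted on the pair, which leave out those matching both equally, Hspa8 held 99.7%, 80.4%, 73.0%, 35.4% and 32.7% in the 11-week controls. In the 11-week Titan mice it held 26.5% to 32.8%. In older mice it held 34.3%, 26.2%, 76.7%, 75.2% and 27.7% in controls and 21.4% to 34.8% in Titan mice. The share was thus over 70% in 5 of 10 controls and in 0 of 10 Titan mice. With all matched copies added to Hspa8, the line difference was -0.26 ± 0.29 at 11 weeks (edgeR adjusted p = 0.612) and 0.04 ± 0.29 at 19-21 weeks (0.951). In 11-week controls the summed level ran from 83.8 to 264 CPM, and in Titan mice from 105 to 137 CPM.

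In the reference, Gm15459 differs from the 1941 coding bases of Hspa8 at 5 positions (G114A, C414T, C549T, G1222A and C1440T, counted from 1 at the start codon). The longest identical stretch is 672 bases. The windows around the first 2 of these show how little separates the pair, with the differing base in capitals.
Hspa8 around 114: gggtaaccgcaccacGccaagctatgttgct
Gm15459 around 114: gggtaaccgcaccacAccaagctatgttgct
Hspa8 around 414: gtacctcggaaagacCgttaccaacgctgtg
Gm15459 around 414: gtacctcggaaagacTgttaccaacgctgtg

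**Figure D4:**
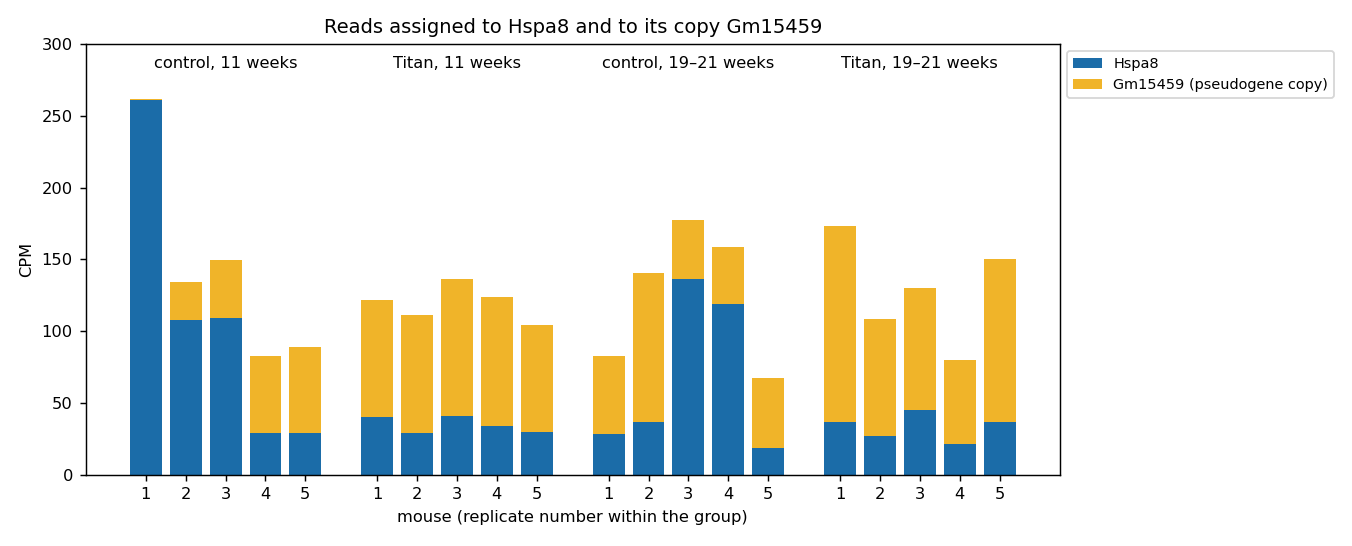
Stacked bars of the level in CPM (vertical axis, from 0) of Hspa8 and its pseudogene Gm15459 in each of the 20 mice, by group. Hspa8 makes up over 70% of the bar in 3 of 5 controls at 11 weeks and 2 of 5 at 19-21 weeks, and under 35% in all 10 Titan mice.

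Hspa1a and Hspa1b, the stress-induced HSP70 pair on chromosome 17, are themselves near-identical (99.43% over the coding bases, longest identical stretch 638 bases). Reads that match both equally are not counted, and the split of the rest is uncertain. Hspa1a was at 4.05, 0.916, 0.792, 0.671 and 1.10 CPM in 11-week controls and 2.83, 1.17, 8.46, 1.59 and 1.81 CPM in Titan mice. In older mice it was at 0.858, 2.08, 1.40, 0.264 and 0.503 CPM in controls and 4.76, 2.93, 7.78, 0.843 and 5.86 CPM in Titan mice. Apart from Titan replicate 4, the older Titan mice lay above all older controls, with a log2 fold change of 2.03 ± 0.66 (edgeR adjusted p = 0.0575, DESeq2 adjusted p = 0.0328). Hspa1b gave -0.46 ± 0.50 at 11 weeks and 0.50 ± 0.51 at the later age (edgeR adjusted p = 0.588), and the sum of the pair gave 0.76 ± 0.53 (0.399).

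The remaining cytosolic members overlapped between lines at both ages. Hsp90ab1 and Hsp90aa1, the constitutive and the inducible HSP90, had log2 fold changes of 0.04 ± 0.11 and 0.04 ± 0.20 at 11 weeks and of 0.14 ± 0.11 and 0.33 ± 0.20 at 19-21 weeks. Bag3, which links HSP70 to autophagy, was at 36.5 ± 9.63 CPM in older controls and 53.5 ± 19.5 CPM in older Titan mice (0.55 ± 0.24, edgeR adjusted p = 0.171). Hsph1 (HSP110), Dnaja1 and Dnajb1, all of which assist HSP70, ranged from -0.09 to 0.50 over both ages. Hsf1 was at 15.1 ± 1.67 and 15 ± 1.21 CPM in 11-week control and Titan mice and at 14.1 ± 1.70 and 17.2 ± 1.95 CPM in the older ones (0.29 ± 0.11, edgeR adjusted p = 0.0938). Its activity, which depends on trimerisation and phosphorylation, is not read by RNA counts.

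Hspe1 (HSP10), the lid of the mitochondrial chaperonin, was the member that was lower in Titan mice at both ages. Its level was 19.7, 14.9, 23, 19.6 and 19.2 CPM in 11-week controls and 16.5, 12.8, 14.3, 10.2 and 16.2 CPM in Titan mice. The groups overlapped through control replicate 2, with a log2 fold change of -0.46 ± 0.13 (edgeR adjusted p = 0.0194), which lost the call without control replicate 3 (adjusted p = 0.062) or Titan replicate 2 (0.0536) and when only the groups compared were fitted (0.0551). At 19-21 weeks it was at 26.8, 24.6, 33, 23.7 and 27.7 CPM in controls and 13.6, 14.6, 13.7, 11.8 and 11.7 CPM in Titan mice. These did not overlap, against 4% of all genes that were lower without overlap, and the level was 2.09-fold lower (-1.06 ± 0.13, edgeR adjusted p = 3.76e-05), a call that held without any one mouse.

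The older controls all exceeded the younger ones in Hspe1 (0.49 ± 0.13, edgeR adjusted p = 0.231), which 0.508% of all genes did, while in Titan mice the age difference was -0.11 ± 0.13. The difference between these age effects, -0.60 ± 0.18, ranked first of all 42 members in this test and did not pass (edgeR adjusted p = 0.29). Hspd1 (HSP60), the barrel that Hspe1 closes, did not move with it to the same extent. It was at 149, 144, 145, 149 and 187 CPM in 11-week controls and 138, 139, 144, 108 and 127 CPM in Titan mice, with the highest Titan value just under the lowest control (-0.24 ± 0.12, edgeR adjusted p = 0.207). At 19-21 weeks it was at 141 ± 15.6 and 123 ± 23.9 CPM (-0.19 ± 0.12, edgeR adjusted p = 0.345).

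Hspe1 and Hspd1 lie head to head on chromosome 1 (55088132-55091307, plus strand, and 55077835-55088243, minus strand) and share one promoter region. The counts used are those of 1 strand, so reads of the overlapping first exons were assigned by strand. A heat shock element, GAANNTTCNNGAA or TTCNNGAANNTTC, occurred in 3 of the 33 members with a promoter (9.09%), against 0.662% of all genes. These were Hspe1, Hspd1 and Hsph1, and in Hsph1 the matches lie after the start site. In the pair it is the same stretch, with 2 overlapping matches, shown in capitals at chr1:55088053-55088082 (plus strand), inside an exon of the GENCODE annotation. It is shown because it lies in promoter windows of a gene that was lower and of one that did not pass. For Hspd1 it falls in the window at 55087883-55088182 and not in that at 55088194-55088493. Whether it acts on either gene was not tested.
Hspe1 and Hspd1: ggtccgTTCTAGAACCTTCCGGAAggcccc

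Mice of 1 group varied in these genes. The pooled within-group SD of log2 CPM had a median of 0.302 over the 42 members, against 0.234 over all genes tested. For ER members the median was 0.243 and for cytosolic members 0.428. Compared with the 500 genes nearest in mean level, 17 of the 42 lay over the 90th percentile of spread, 10 of them ER and 7 cytosolic members. The most variable were Hspa1a (1.039), Hspa8 (0.965), Hspa1b (0.96), Derl3 (0.749) and the ER stress-induced protein Creld2 (0.689), and the least variable was Canx (0.099).

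**Figure D5:**
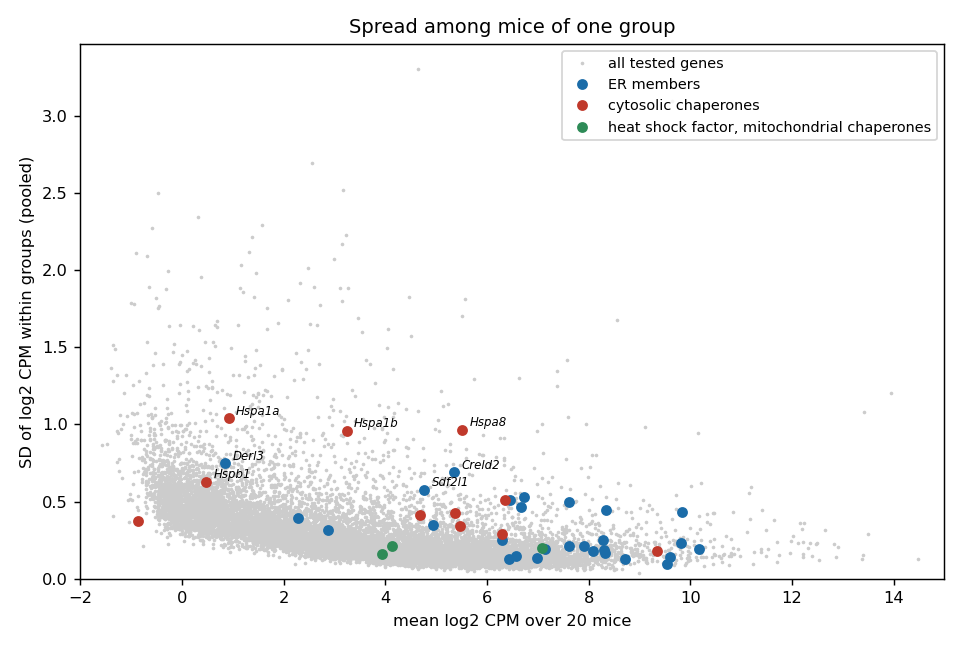
Pooled within-group SD of log2 CPM (vertical axis) against mean log2 CPM (horizontal axis) for all genes tested (grey) and the 42 members (coloured by role). Hspa1a, Hspa8 and Hspa1b are the highest members at 1.039, 0.965 and 0.96, and Canx is the lowest at 0.099.

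This spread was shared between genes within a mouse. Replicate 1 of the 11-week controls had the highest value of its group in 20 of the 28 ER members and in 8 of 10 cytosolic members other than Hsp25-ps1. Replicate 3 of the 11-week Titan mice was highest in 9 of those 10 cytosolic members and in 4 of the ER members. Among older Titan mice, replicate 1 was highest in 17 ER members, and replicate 4 was lowest in 21 ER and 8 cytosolic members. Among older controls, replicate 1 was lowest in 16 ER members and replicate 2 highest in 14. Thus chaperone genes of both compartments were high or low together in some mice, while in replicate 3 of the 11-week Titan mice the cytosolic ones stood high and the ER ones did not.

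Without replicate 1 of the 11-week controls, 4 ER members were lower at 11 weeks and the median log2 fold change of the 28 was -0.13. Over the omission of each mouse in turn the count ranged from 4 to 7, the median from -0.27 to -0.13, and the number of negative log2 fold changes from 19 to 24. Clock genes, which rise and fall with the time of day and feeding, summed to 324 to 469 CPM in 11-week controls and 351 to 381 CPM in Titan mice, and to 375 to 616 and 349 to 590 CPM in the older groups. This sum hides wider variation of single genes. Clock ran only from 130 to 182 CPM over all mice. Dbp, however, ran from 0.858 to 54.2 CPM in older controls (median 25.6) and from 1.27 to 46.8 CPM in older Titan mice (median 2.55). Nr1d1 ran from 4.9 to 83.6 CPM in 11-week controls and from 20.3 to 40.6 CPM in 11-week Titan mice. Immediate early genes, which respond to handling, summed to 74.4 to 164 CPM over the 20 mice. Of the 7 tested, Ier2 was lower (log2 fold change -0.54, edgeR adjusted p = 0.0038) and Btg2 higher (0.63, 0.0387) in 11-week Titan mice. At 19-21 weeks 0 passed. The part of clock and immediate early genes in the spread was not tested.

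Other genes of the same pathways were taken from 5 lists of 137 genes in all. Of 33 further genes of ER folding and translocation, 7 were lower and 1 was higher at 11 weeks, and 2 were lower at 19-21 weeks, against 7.69%, 7.23% and 4.88% of all genes. Those lower at 11 weeks included the proline isomerase Ppib, at 144 ± 17.4 CPM in Titan mice against 235 ± 15.5 CPM in controls (-0.71 ± 0.10, edgeR adjusted p = 7.38e-05). They also included the signal peptidase subunits Spcs3 (-0.61 ± 0.10, 0.00042) and Sec11c (-0.51 ± 0.11, 0.00232). Ppib and Spcs3 were lower again at 19-21 weeks, both at -0.36 ± 0.10 (edgeR adjusted p = 0.0305 and 0.0347). The median of the 33 at 11 weeks was -0.17 on the log2 scale, close to that of the 28 ER members.

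Of 22 further genes of ER-associated degradation, 1 was higher and 2 were lower at 11 weeks and 1 was higher and 1 lower at 19-21 weeks, shares near the 14.9% and 9.12% of all genes called in either direction. Vcp (p97), the ATPase that pulls proteins out of the ER membrane, was the higher one at both ages, at 92.6 ± 8.04 CPM against 27.5 ± 3.03 CPM at 11 weeks (1.75 ± 0.08, edgeR adjusted p = 2.37e-11) and 94.5 ± 7.71 against 26.4 ± 1.75 CPM at 19-21 weeks (1.84 ± 0.08, 1.09e-11). The groups lay far apart, in contrast to the partners Syvn1, Sel1l and Derl1, which overlapped at both ages. Fam8a1, a binding partner of Syvn1, was lower at both ages (-0.46 ± 0.07 and -0.65 ± 0.07, edgeR adjusted p = 0.000178 and 1.11e-05), and the lectin Os9 at 11 weeks (-0.47 ± 0.09, 0.00179).

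Of 25 tested genes of stress signalling and the integrated stress response, 2 were higher and 1 was lower at 11 weeks, and 1 was higher and 1 lower at 19-21 weeks, shares no higher than the 14.9% and 9.12% of all genes. The stress-induced factor Atf3 was higher at both ages, at 2.61 ± 1.37 against 0.877 ± 0.285 CPM at 11 weeks (1.56 ± 0.38, edgeR adjusted p = 0.00654) and 1.97 ± 1.04 against 0.696 ± 0.311 CPM later (1.44 ± 0.42, 0.0338). Sesn2, a sensor of leucine, was higher at 11 weeks (1.0 ± 0.19, 0.00122), and Asns, a classical ATF4 target, was lower (-1.70 ± 0.53, 0.0335). Eif2s1, the subunit that PERK phosphorylates, was lower at 19-21 weeks (-0.32 ± 0.08, 0.0159).

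Of 44 further cytosolic chaperones and co-chaperones, 2 were higher and 1 was lower at 11 weeks, and 3 were higher and 3 lower at 19-21 weeks, against 14.9% and 9.12% of all genes called in either direction. Hspa2, an HSP70 known from the testis, and Hspb6, a small heat shock protein, were higher at both ages, with log2 fold changes of 1.17 ± 0.24 and 0.62 ± 0.18 at 11 weeks (edgeR adjusted p = 0.00192 and 0.0221) and 0.89 ± 0.24 and 0.73 ± 0.18 later (0.0239 and 0.0136). Fkbp5, an HSP90 co-chaperone induced by glucocorticoids, was higher at 19-21 weeks at 31.7 ± 10.9 against 15.1 ± 2.06 CPM (1.09 ± 0.22, 0.00283). Of 12 further mitochondrial chaperones and proteases, 0 passed at 11 weeks by edgeR or DESeq2, against 14.9% of all genes by edgeR. At an unadjusted p under 0.05 there were 3, against 27.5% of all genes. At 19-21 weeks 1 was lower, against 9.12% of all genes called in either direction. That was Grpel1, the exchange factor of mitochondrial HSP70 (-0.26 ± 0.08, edgeR adjusted p = 0.0378).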

How the data were processed

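Total RNA of 20 livers was depleted of ribosomal RNA and made into directional libraries by the authors. Per the labels and the deposited files, reads were aligned and counted per gene with STAR 2.5.3a on GRCm38; the deposited values are raw counts of reads per gene in 3 strand settings. Column 4 was used here, since it held 96.83% to 97.55% of the reads assigned by strand. Rows that name no gene were left out. They hold unmapped reads, ambiguous reads and the reads outside genes, the last being 18.39% to 41.96% of all but the unmapped reads. Also left out were 1671 genes, 1562 of them on Y and the rest histone genes. Symbols came from GENCODE M21. Ddit3 has a second identifier, at 0 in every mouse.

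Counts were fitted in 1 edgeR 4.0.16 quasi-likelihood model of the 4 groups (R 4.3.3, TMM scaling, filterByExpr). P-values were adjusted over 13783 genes at a threshold of 0.05, SE is the log2 fold change divided by the root of F, and CPM are TMM-scaled. The script was tested on simulated data. DESeq2 1.42.0, other scalings, filters, strand counts, sample sets and the sum of copies (BLAST 2.17.0, at least 90% identity over 100 bases) were alternatives. A covariate for reads that fell outside genes was added after seeing the data. Promoters were read from RefSeq (GRCm38.p6).

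The members, the gene lists and the tests were chosen with earlier results of these data known. Values in every mouse or group ranges were given for members that passed the test, means, ranges or fold changes for the other members, and from each other list up to 3 called genes per direction, ranked by p, were named. Further values in every mouse (non-overlapping or DESeq2-called members, Hspa5, Herpud1, the parents and copies) were chosen after they were seen.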

Additional observations from a re-analysis of the deposited data

Results flagged for a closer look

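In each gene and group of 5 mice, the gap between the highest or lowest mouse and its neighbour was compared with Dixon's limit of 0.71 of the range. Of 168 such groups, 11 (6.55%) exceeded it, where chance gives about 1 in 20. Replicate 1 of the 11-week controls stood apart in Hspa1a at 4.05 CPM and Hsph1 at 143 CPM, and replicate 3 of the 11-week Titan mice in Hspa1a at 8.46 CPM and Eif2ak3 at 43.9 CPM. Single values were those of Dnajb11 in 11-week Titan replicate 5 (58.5 CPM), Hspd1 in 11-week control replicate 5 (187 CPM), Xbp1 in older control replicate 2 (279 CPM) and Pdia4 in older control replicate 4 (330 CPM). For Hsp25-ps1 they were 0.099 CPM in 11-week control replicate 3 and 0.054 CPM in older control replicate 3, each from at most 2 reads in a group otherwise at 0, and 2.11 CPM in older Titan replicate 4.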

How the results depend on the processing

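Over 31 alternatives, 29 for Hsp25-ps1, no called member changed direction. Sdf2l1, Pdia6, Hsp25-ps1 and the Hspe1 difference at 19-21 weeks kept their calls in all of those run. Calr and Pdia3 lost theirs only where log2 fold changes of at most 0.5 were not counted, which left 3 members lower at 11 weeks. Hspe1 at 11 weeks lost its call in 4 alternatives, among them that limit and the fit of only the groups compared (adjusted p = 0.0551), and Dnajb11 in 7. Hspa8 lost its call in 20 alternatives, including other scaling (adjusted p = 0.0511) and both strands (0.0516). Asking for 10 counts in every mouse left Hsp25-ps1 untested, hence 0 higher members at either age. At 19-21 weeks 2 members were higher by DESeq2, without a filter, with only the groups compared and with the replicate block, Hspa1a being the added one in each. DESeq2 called 1 member lower with age in controls. Leaving out single mice gave 5 to 8 lower and 1 to 1 higher members at 11 weeks, 1 to 2 lower and 1 to 3 higher at 19-21 weeks, and 0 in the other comparisons. Replicate numbers are shared between groups, and the labels do not say what a number stands for. Deviations of same-numbered mice correlated at -0.144 to 0.175, over 0.1 in 4 of 30 pairs. Mice of different numbers were not compared, so these values cannot decide whether same-numbered mice share a batch. With the replicate block 5 members were lower at 11 weeks, Dnajb11 (adjusted p = 0.0517) and Hspa8 (0.09) losing their calls. With only the groups compared, no age-by-line difference could be fitted. Depth limits Hspa1a, Hspb1, Derl3 and Hsp25-ps1 most, with at most 116 reads in any mouse.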
